A study of Mus musculus with 2 samples.

Results

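The MHC class II presentation genes were followed through heart allografts by single-cell RNA sequencing. The 10 genes were taken by name from the 22337 gene symbols of the matrix, and none was chosen for its level: *H2-Aa*, *H2-Ab1*, *H2-Eb1*, *Cd74*, *Ciita*, *H2-DMa*, *H2-DMb1*, *H2-DMb2*, *H2-Oa* and *H2-Ob*. The cells came from 6 Bm12 donor hearts removed 14 days after transplantation into C57BL/6 (B6) mice. Of these, 3 hearts carried intact *Il33* (IL-33+ grafts, hearts 1 to 3) and 3 lacked it (IL-33- grafts, hearts 4 to 6). The donors without *Il33* came from crosses that combined the Bm12 and *Il33*-/- strains, and all recipients were B6 with intact *Il33*. Cells were obtained from the digested hearts by a density gradient for immune cells, marked with 1 hashtag per heart, pooled and sequenced together, and no cell barcode occurred in more than 1 heart. Ages of the mice are not given in the sources used here.

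The deposited annotation assigned 4441 cells to 14 types, with 230 to 1666 cells and 908138 to 7012961 unique molecular identifiers (UMIs) per heart. A cell had 1500 to 14977 UMIs. The UMIs of the 10 genes summed to 178529 over all cells. Levels are CPM, the UMIs of a gene scaled to the same total in each cell, averaged over the cells of a type, and the heart was the replicate in every comparison of grafts. *Il33* itself had 14, 2 and 133 UMIs in the IL-33+ hearts and 17, 4 and 7 in the IL-33- hearts, and since these are 3' tags, whose place relative to the deleted part was not known here, they do not check the labels.

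MHC class II molecules present peptides from endosomes to CD4+ T cells. *H2-Aa* and *H2-Ab1* encode the alpha and beta chains of I-A, and *H2-Eb1* encodes the beta chain of I-E, which B6-derived haplotypes do not display because they lack a working alpha chain gene. *Cd74* encodes the invariant chain that guides new class II molecules to endosomes, H2-M (*H2-DMa*, *H2-DMb1*, *H2-DMb2*) exchanges its remnant for antigenic peptide, and H2-O (*H2-Oa*, *H2-Ob*) restrains H2-M. *Ciita* encodes the coactivator that drives transcription of the pathway and is itself induced by interferon gamma. The pathway is held constantly high in B cells, dendritic cells and activated macrophages. Bm12 mice carry a variant of *H2-Ab1*, which is the mismatch between donor and recipient. The counts are per gene and do not separate donor from recipient transcripts.

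In the GRCm38 genome with GENCODE vM21 gene models, the 8 H2 genes among the members lay on chromosome 17 between 34092340 (the start of *H2-Oa*) and 34316674 (the end of *H2-Eb1*). *Ciita* lay on chromosome 16 at 10480059-10528418. RefSeq promoter windows (250 bases before to 50 after a gene's start, GRCm38.p6) were matched for 7 members, and those of *H2-Ab1*, *Cd74* and *Ciita* are not used here. They are shown because the members followed each other closely over cell types, with exceptions given below. The letters AAC and ATGATG with 2 bases between them, a core of the X box to which the regulatory factor X complex binds, were searched with ATTGG, the inverted CCAAT of the Y box, and TGACGTCA, the palindromic X2 element. The first pattern was written with these windows in view. The stretches below run 5′ to 3′ on the gene's strand, with the X or X2 letters and the Y letters in capitals.

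H2-Eb1, chr17:34305770-34305820, plus strand: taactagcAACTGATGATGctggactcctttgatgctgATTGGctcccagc
H2-DMb1, chr17:34153091-34153142, plus strand: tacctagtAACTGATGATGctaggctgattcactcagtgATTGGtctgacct
H2-DMb2, chr17:34145120-34145171, plus strand: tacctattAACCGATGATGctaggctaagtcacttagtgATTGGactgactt
H2-Ob, chr17:34238812-34238860, plus strand: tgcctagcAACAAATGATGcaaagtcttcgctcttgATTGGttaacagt
H2-Aa, chr17:34287859-34287905, minus strand: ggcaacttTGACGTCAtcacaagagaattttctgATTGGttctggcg
H2-Oa, chr17:34092283-34092348, plus strand: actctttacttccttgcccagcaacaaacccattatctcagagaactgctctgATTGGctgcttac

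*H2-Eb1*, *H2-DMb1*, *H2-DMb2* and *H2-Ob* held the X letters 17 to 20 bases before a Y box, and *H2-Aa* held the X2 letters 18 bases before one. On either strand the X letters were in 0.137% of all 32851 promoter windows, TGACGTCA in 1.79% and ATTGG in 37.4%. The X letters followed within 30 bases by ATTGG on the gene's strand were found in 4 windows, those of the 4 members above. Since the X letters were written with these windows in view, this count does not measure how specific the pattern is. *H2-Oa* held CTGATTGG, found in 4.1% of windows, without the X letters, and neither of the 2 windows of *H2-DMa* held the X or X2 letters. These matches describe letters and not bound sites.

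The members separated the annotated types into 6 with high and 8 with low levels. The level of *H2-Aa*, over all cells of a type, was 6566 CPM in conventional dendritic cells (cDCs), 5992 CPM in macrophages, 4105 CPM in B cells, 3901 CPM in the cells annotated as unconventional T cells, 2261 CPM in monocyte-derived dendritic cells (Mo-DCs) and 1205 CPM in monocytes. In the other 8 types it lay between 102 CPM (Tcm) and 205 CPM (Treg). *Cd74* had the same high types, from 12702 CPM in cDCs and 11932 CPM in macrophages to 3597 CPM in monocytes, against 181 CPM to 332 CPM in the low ones. The types were named from clusters built on the genes of these same cells, so these differences between types are a description without a test.

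**Figure D1:**
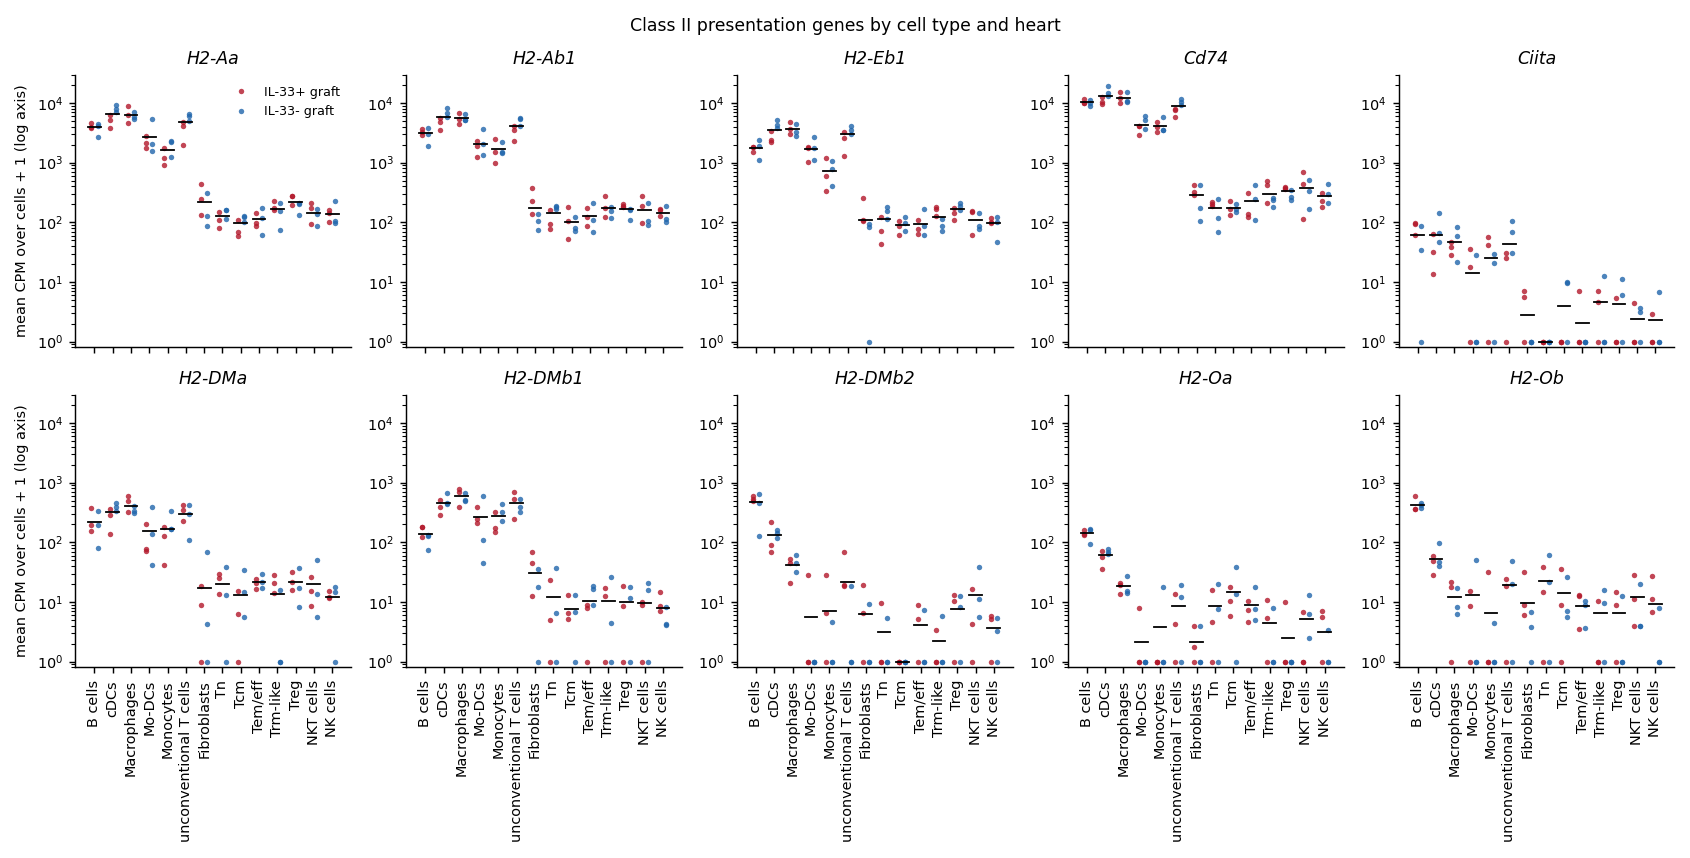
Level of each of the 10 genes in each annotated type, as mean CPM over the cells of a heart plus 1 on a log axis. Points are hearts (red, IL-33+ graft; blue, IL-33- graft) and black bars are means over the 6 hearts. *H2-Aa*, *H2-Ab1*, *H2-Eb1* and *Cd74* sit high in 6 types, while *H2-DMb2*, *H2-Oa* and *H2-Ob* peak in B cells.

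Neighbouring types in the order often did not differ beyond the spread of hearts. Averaged over hearts, *H2-Aa* was 6642 ± 1968 CPM in cDCs and 6343 ± 1464 CPM in macrophages (SD, n = 6), and cDCs were above macrophages in 4 of 6 hearts. B cells, at 3919 ± 678 CPM, were above Mo-DCs, at 2646 ± 1441 CPM, in 5 of 6 hearts, with overlapping ranges. Mo-DCs were above monocytes, at 1612 ± 589 CPM, in 5 of 6. The ranges did not overlap between monocytes and the next lower type, fibroblasts, whose mean was 222 ± 132 CPM. For *Cd74* and *H2-Eb1*, too, every heart of the 6 high types was above every heart of the 8 low ones. For *H2-DMa* this did not hold, since its lowest hearts were 39.9 CPM in Mo-DCs and 40.3 CPM in monocytes and fibroblasts reached 69.1 CPM in heart 5.

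*Ciita* transcripts were rare and, over all cells of a type, followed the same split. The coactivator had 67.4 CPM in B cells, 47.6 CPM in macrophages, 45.7 CPM in cDCs, 35 CPM in unconventional T cells, 33.3 CPM in monocytes and 25.6 CPM in Mo-DCs. In the low types it lay between 0 CPM in naive T cells (Tn), where 0 of 243 cells had a UMI, and 4.53 CPM in Trm-like cells. A count of 0 among 243 cells allows a share of up to 1.23% of cells with a UMI, counting error only. Over hearts the split did not hold. The lowest heart was 0 CPM in B cells, unconventional T cells, monocytes and Mo-DCs, and the highest heart of Trm-like cells was 11.8 CPM.

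Transcripts of the chains were also found in the low types of T, NK and stromal cells, at a similar low share in each type. After every cell was thinned to 1500 UMIs, 18.5% of Tn had an *H2-Aa* UMI, a type that should lack class II (27.6% before thinning, median depth 2764 UMIs). The share was 11.6% to 22.4% in the other low T and NK types and 14.9% in fibroblasts. It was 96.5% in B cells, 90.9% in macrophages, 88.3% in cDCs, 84.3% in unconventional T cells, 60.8% in Mo-DCs and 45.5% in monocytes. *Cd74* behaved alike, with 27.6% of Tn and 19.3% to 32.3% of the other low types. Free RNA in droplets can give such UMIs to cells that do not express a gene, but its part here was not tested. *Cd74* supplied 31.3% (Tn) to 42.5% (NKT cells) of the UMIs of the 10 genes in the low types. In the high types it supplied 42.3% (Mo-DCs) to 51.5% (monocytes). Values in the low types at or near those of Tn are read as background, whatever its source.

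H2-M and H2-O transcripts were not shared out like the chains. Over all cells of a type, *H2-DMa* and *H2-DMb1* were high in the same types as *H2-Aa*, but not in the same order. *H2-DMa* ran from 416 CPM in macrophages and 341 CPM in cDCs to 119 CPM in Mo-DCs. *H2-DMb1* ran from 600 CPM in macrophages to 146 CPM in B cells, below 257 CPM in Mo-DCs and 200 CPM in monocytes. *H2-DMb2*, the second H2-M beta gene, was highest in B cells with 501 CPM, then 133 CPM in cDCs, 45.6 CPM in macrophages and at most 16.6 CPM in the other types. In B cells 356 UMIs of *H2-DMb2* stood against 108 of *H2-DMb1*, a ratio of 3.3. In macrophages the same ratio was 0.0863 (155 against 1796 UMIs) and in cDCs 0.294. The ratio was 1 to 10 over the hearts in B cells and 0.0417 to 0.157 in macrophages, so these ranges did not overlap. Of all 50-base words of the *H2-DMb1* transcript 27.2% were also in *H2-DMb2*, and 20.4% of those in its last 500 bases. Of the last 500 bases of *H2-DMb2* 0% were in *H2-DMb1*. Reads that fit both genes are not counted for either, so a loss near the 3' end would fall on *H2-DMb1* and raise this ratio in every type.

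Both H2-O genes were highest in B cells. *H2-Ob* reached 404 CPM in B cells, 62.3 CPM in cDCs and 14.7 CPM in macrophages, and *H2-Oa* reached 145 CPM, 64.9 CPM and 16.5 CPM. For both genes the lowest B cell heart was above the highest cDC heart. The *H2-Ob* level in B cells was 355, 601 and 357 CPM in the IL-33+ hearts and 421, 375 and 447 CPM in the IL-33- hearts, which overlap. Outside these 3 types the highest value was 32.7 CPM of *H2-Ob* in Tn, from 20 UMIs, followed by 19.4 CPM in unconventional T cells and 13.6 CPM of *H2-Oa* in Tcm, from 17 UMIs. In Tn the thinned share of cells with an *H2-Ob* UMI was 4.94%, against 0.76% to 1.88% in the other low types, and it ranged from 0% to 7.14% over hearts.

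**Figure D2:**
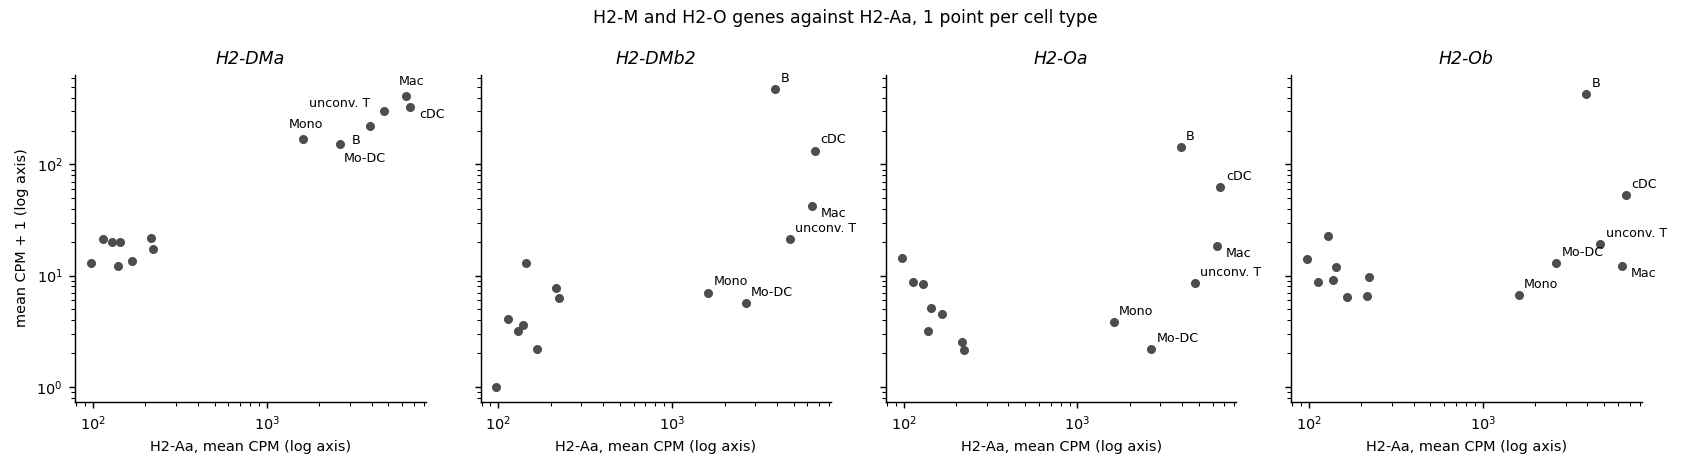
Mean CPM over hearts plus 1 of *H2-DMa*, *H2-DMb2*, *H2-Oa* and *H2-Ob* (y, log axis) against *H2-Aa* (x, log axis), 1 point per annotated type, with the 6 high types named. *H2-DMa* is high in the same 6 types as *H2-Aa*, with some neighbours exchanged, whereas *H2-DMb2*, *H2-Oa* and *H2-Ob* set B cells, and below them cDCs, apart from macrophages with as much *H2-Aa*.

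The make-up of the class II UMIs differed between the high types. *H2-Eb1* supplied 6.77% of the UMIs of the 10 genes in monocytes and 8.73% in B cells, against 11.5% in cDCs, 12.9% in macrophages and 13.4% in Mo-DCs. The ratio of *H2-Eb1* to *H2-Aa* UMIs was 0.453 in B cells, 0.378 to 0.56 over hearts, and 0.605 in macrophages, 0.51 to 0.655 over hearts. These ranges overlap. *Cd74* supplied 49.5% in B cells and 51.5% in monocytes, against 42.3% to 43.5% in the other high types. Over hearts its share in monocytes was 40.5% to 55.8%, which overlaps 40.9% to 44.3% in macrophages. There were 2.57 *Cd74* UMIs for each of *H2-Aa* in B cells, between 2.52 and 2.67 in every heart, and 2.02 in macrophages, between 1.84 and 2.2 in every heart. *H2-DMa* made up 2.54% in monocytes and 0.984% in B cells, with overlapping ranges over hearts of 0.372% to 3.07% and 0.45% to 1.48%.

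Cells of 1 type differed widely, and B cells least among the high types. The core genes (*H2-Aa*, *H2-Ab1*, *H2-Eb1* and *Cd74*) together supplied a median of 3.21% of the UMIs of a cDC, 2.73% of a macrophage and 1.96% of a B cell. From the 10th to the 90th percentile of cells they ran from 1% to 2.98% in B cells, 0.235% to 4.89% in cDCs and 0.26% to 4.87% in macrophages. In Mo-DCs the median was 0.387% and in monocytes 0.133%, with 90th percentiles of 3.01% and 2.26%. Less than 1% of UMIs came from the core genes in 9.79% of B cells, 19.6% of macrophages, 21.1% of cDCs, 67.2% of Mo-DCs and 79.2% of monocytes.

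**Figure D3:**
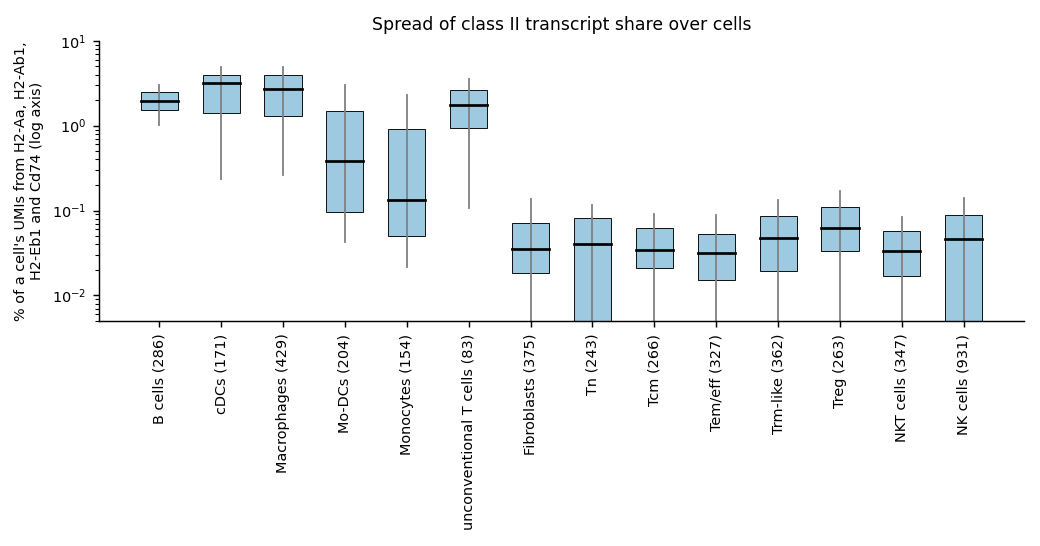
Percent of a cell's UMIs that came from the 4 core genes, on a log axis, for each annotated type (number of cells in brackets). Lines span the 10th to 90th percentile, boxes the quartiles and thick bars the median, and values under 0.005% are drawn at the lower edge. B cells are narrow around 1.96%, while monocytes and Mo-DCs spread over more than a factor of 10.

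Within types the core genes rose and fell together from cell to cell. Over 429 macrophages, thinned to equal depth, the Pearson correlation of log2(UMIs + 1) was 0.75 to 0.86 for the 6 pairs of core genes, and over 171 cDCs 0.76 to 0.84. In 286 B cells it was 0.21 to 0.51. These are descriptions over cells of shared hearts, without a p, and in B cells the range of levels was also narrower.

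Several annotated types held cells with markers of other kinds, and class II levels differed between them. Of 171 cDCs, 38 had UMIs of 2 or more of the plasmacytoid dendritic cell (pDC) markers *Siglech*, *Ccr9* and *Bst2*, and their *H2-Aa* level was 2862 CPM against 7624 CPM in the other 133. *H2-Aa*, *H2-Ab1*, *H2-Eb1*, *Cd74*, *H2-DMb1* and *H2-Oa* were lower in the pDC-marked cells in 6 of 6 hearts, while *H2-DMa* was 337 CPM against 343 CPM. Hearts 2 and 5 held 1 pDC-marked cell each, and *H2-Oa* had 8 UMIs in all pDC-marked cells. A further 36 cDCs had 2 or more of *Ccr7*, *Fscn1* and *Ccl22*, markers of mature migrating dendritic cells. In these the H2-M genes *H2-DMa* (164 CPM against 389 CPM) and *H2-DMb1* (112 CPM against 546 CPM), and *H2-Ob* (31.5 CPM against 70.5 CPM), were lower than in the other cDCs in 6 of 6 hearts. Hearts 2, 3 and 5 held only 2, 3 and 3 of the mature-marked cells, with 0 CPM of *H2-Ob*. Over all 36 cells *H2-Ob* had 9 UMIs. *H2-Aa* was 7059 CPM against 6435 CPM and *H2-DMb2* 185 CPM against 119 CPM, each higher in 4 of 6 hearts.

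Among 204 Mo-DCs, 43 had 3 or more of 5 neutrophil markers (*S100a8*, *S100a9*, *Retnlg*, *Csf3r*, *Cxcr2*), and these had 227 CPM of *H2-Aa* against 2804 CPM in the other 161. Heart 3 held 26 of the 43 and heart 4 held 10, while hearts 2 and 6 held 1 each. The neutrophil-marked cells had no *Ciita*, *H2-Oa* or *H2-Ob* UMI. The other Mo-DCs had only 13, 2 and 6 UMIs of these genes, too few to compare. Of 375 fibroblasts, 66 had 2 or more of 6 endothelial markers (*Pecam1*, *Cdh5*, *Kdr*, *Egfl7*, *Cldn5*, *Tie1*). Their *Cd74* level was 670 CPM against 218 CPM in the other fibroblasts and their *H2-Eb1* level 219 CPM against 95.2 CPM, each higher in 4 of the 5 hearts with such cells. *H2-Aa* was 262 CPM against 121 CPM and *H2-Ab1* 225 CPM against 127 CPM, each higher in 3 of the 5. Heart 3 held 47 of the 66 endothelial-marked cells, and hearts 2 and 6 held 2 each. Among fibroblasts with neither a *Ptprc* (CD45) UMI nor 2 B cell or macrophage markers, *Cd74* was 729 CPM in 42 endothelial-marked cells and 176 CPM in 172 others. Most of these cells, 31 of the 42 and 129 of the 172, came from heart 3, so the values mainly describe that heart.

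Cells annotated as unconventional T cells carried markers of both T cells and macrophages. Their 4 T cell markers (*Cd3d*, *Cd3e*, *Cd3g*, *Trac*) summed to 596 CPM averaged over hearts (176 to 1112 CPM), against 924 CPM in Tn and 21.9 CPM in macrophages. Their 6 macrophage markers summed to 3007 CPM (1868 to 4546 CPM), against 5738 CPM in macrophages and 122 CPM in Tn. They were the deepest type, with a median of 10175 UMIs per cell, and 79.5% of the 83 cells had 2 or more markers of a lineage other than T. A T cell name alone therefore does not describe them, and it is kept below as the annotation gives it.

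The genes whose level over the 14 types was most like the mean of the core genes were then listed. Among 10006 genes with at least 10 UMIs in each of 3 or more types, the 10 closest that were not members were *Cd40* (Pearson r = 0.978), *Fgd2* (0.97), *Cd86* (0.966), *Ifi30* (0.961), *Snx8* (0.959), *Ly86* (0.958), *Dnase2a* (0.953), *Unc93b1* (0.95), *Ctsh* (0.947) and *Dnase1l3* (0.944). *Cd40* and *Cd86* encode costimulatory molecules, and *Ifi30* a thiol reductase of antigen processing. *Cd40* was 173 CPM in cDCs, 138 CPM in macrophages and 102 CPM in B cells against at most 16.3 CPM in the low types. Of the members outside the core, *H2-DMa* (0.983), *H2-DMb1* (0.976) and *Ciita* (0.969) ranked 5, 7 and 9 of all 10006 genes. *H2-DMb2* (0.738), *H2-Oa* (0.588) and *H2-Ob* (0.519) ranked 430, 1081 and 1363. These likenesses rest on 14 types of the same 6 hearts and are a description.

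The graft groups were then compared within each type, to ask whether IL-33 in the graft changed class II transcription. Of 110 member-by-type tests (limma, log2 of mean CPM plus 10, 3 hearts against 3), 0 passed a Benjamini-Hochberg adjusted p of 0.05 over all genes of the type, against 0.00884% of the 113178 gene-by-type tests. At an unadjusted p of 0.05 there were 17 of the 110 tests, against a background of 4.71% of all tests, and limma-voom on summed UMIs also called 0. By the cut-offs of the study, a difference of at least 2-fold together with that p, there were 3, against a background of 2.67%. The study applied these cut-offs to another test, the gene specific algorithm of Partek, so its counts are not comparable. Simulated hearts with 4-fold changes of 200 genes gave 66% recovered in cDCs, 61% in macrophages, 52.5% in B cells and 37.5% in fibroblasts, so smaller changes could pass unseen. The changed genes were drawn from the more abundant ones, and the spread between simulated hearts was fixed in advance. These rates therefore do not cover members with few UMIs or the spread of the real hearts.

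**Figure D4:**
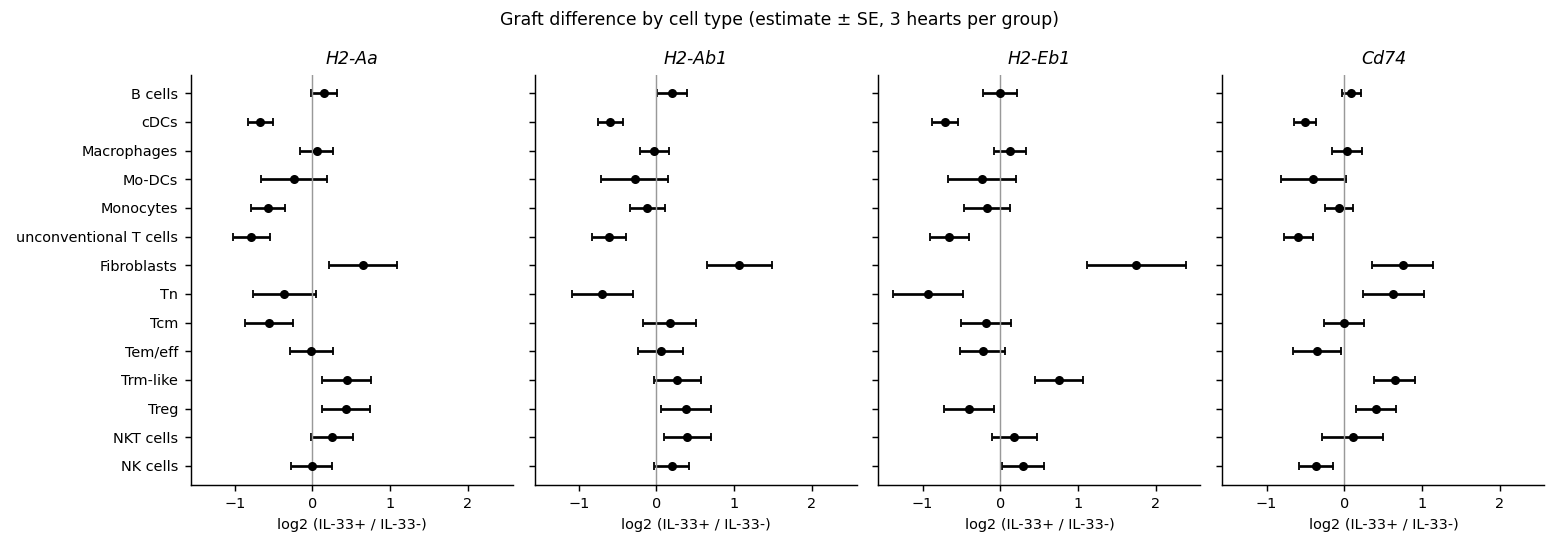
Difference between graft groups as log2 of IL-33+ over IL-33-, with its standard error from limma, for the 4 core genes in each annotated type (3 hearts per group). Values left of 0 are lower in IL-33+ grafts. The cDCs and unconventional T cells lie left of 0 for all 4 genes, whereas macrophages and B cells lie near 0.

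In cDCs all 10 members were on the lower side in IL-33+ grafts, against 45.3% of the 7951 genes tested there, and the 4 lowest unadjusted p of all 110 tests were those of the core genes. *H2-DMb2*, *H2-Oa* and *H2-Ob* each changed sign under an alternative setting. *H2-Aa* was 6399, 3877 and 5208 CPM in the IL-33+ hearts and 6999, 9436 and 7934 CPM in the IL-33- hearts. The groups did not overlap, and the log2 difference was -0.67 ± 0.16 (SE), unadjusted p = 0.000745 and adjusted p = 0.295 (limma). How many of all genes had groups without overlap was not counted, here and below, so a lack of overlap is a description only. The 4 core genes also rose and fell together from cell to cell, so they are not separate results. *H2-Eb1* was 3367, 2241 and 2427 CPM against 3773, 5116 and 4241 CPM, a log2 difference of -0.72 ± 0.17 with adjusted p = 0.276. *H2-Ab1* was 5554, 3573 and 4781 CPM against 5771, 8160 and 6907 CPM, a log2 difference of -0.59 ± 0.16 with adjusted p = 0.371. *Cd74* was 12526, 9763 and 10557 CPM against 12875, 19462 and 14608 CPM, a log2 difference of -0.50 ± 0.14 with adjusted p = 0.407. The heart with the highest level in each gene was IL-33- heart 5, which held 9 cDCs, and the lowest was IL-33+ heart 2, which held 6. *H2-DMa* was the fifth member with an unadjusted p under 0.05 there (261 ± 114 CPM against 392 ± 65 CPM, SD, n = 3, adjusted p = 0.736), and 6.79% of all genes in cDCs reached that p. The other 5 members of cDCs had log2 differences of -1.11 (*Ciita*) to -0.31 (*H2-Ob*), with adjusted p up to 0.942 (limma).

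The share of pDC-marked cells was higher in the sampled IL-33+ hearts, from few cells, and this was not tested. They were 26.3%, 16.7% and 40.9% of the cDCs in IL-33+ hearts (10, 1 and 18 cells) and 10.4%, 11.1% and 11.5% in IL-33- hearts (5, 1 and 3 cells). The summed level of the 3 pDC markers in cDCs was 1062 to 2410 CPM in IL-33+ hearts and 287 to 832 CPM in IL-33- hearts. Without the pDC-marked cells, *H2-Aa* was 7826, 4587 and 6738 CPM against 7362, 9959 and 8719 CPM, and the groups overlapped. Its log2 difference was then -0.47 (adjusted p = 0.9) and that of *H2-Eb1* -0.48. The summed markers of mature dendritic cells were 577 to 1386 CPM in IL-33+ and 1677 to 3199 CPM in IL-33- hearts, also not tested. Without the cells holding 2 or more of them, the log2 difference of *H2-Aa* was -0.67, as with them. Without hearts of fewer than 10 cDCs, which removes hearts 2 and 5, it was -0.37 (unadjusted p = 0.0161).

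**Figure D5:**
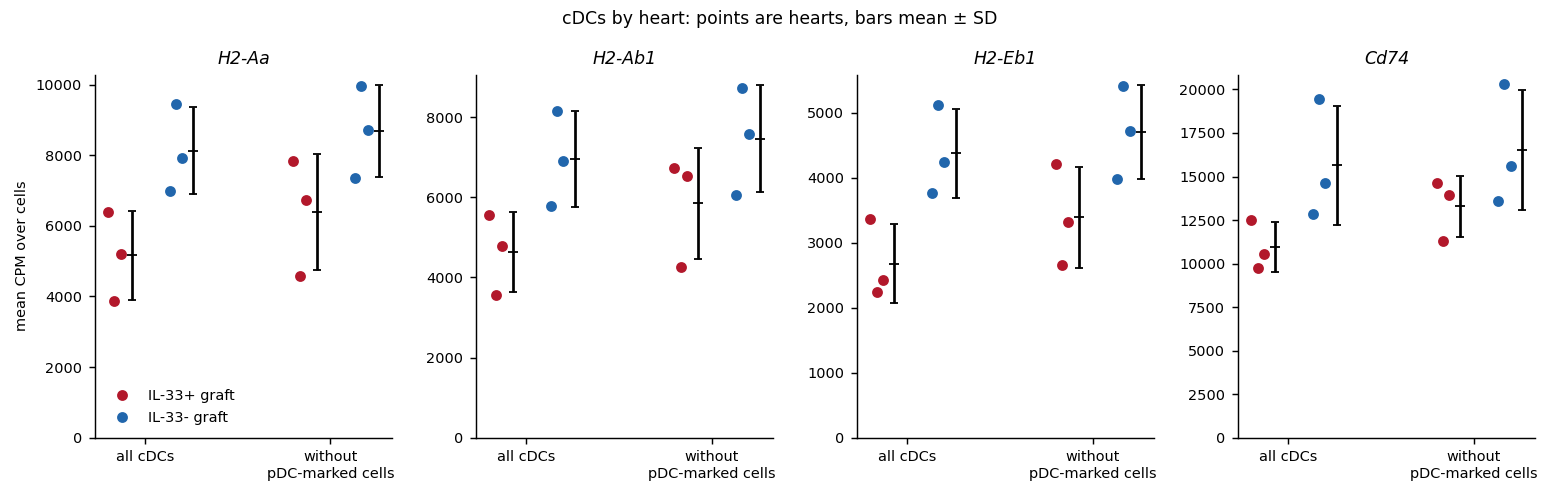
Mean CPM of the 4 core genes in cDCs of each heart, for all cDCs and without the 38 cells that held 2 or more pDC markers (red, IL-33+ graft; blue, IL-33- graft; bars, mean ± SD of 3 hearts). With all cDCs no IL-33+ heart reaches an IL-33- heart in any of the 4 genes, and without the pDC-marked cells the groups overlap in each. The share of all genes whose groups do not overlap was not counted.

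Macrophages and B cells showed no such difference. In macrophages *H2-Aa* was 6283, 8803 and 4575 CPM in IL-33+ and 7076, 5855 and 5467 CPM in IL-33- hearts, and *Cd74* was 12099, 15290 and 9866 CPM against 15017, 10974 and 10248 CPM. Both groups overlapped, 6 of the 10 members were on the higher side in IL-33+ grafts where 54.7% of all genes were on the lower, and the lowest unadjusted p was 0.128 where 4.04% of all genes were under 0.05 (limma, lowest adjusted p = 0.987). In B cells *H2-Aa* was 3775, 4575 and 3904 CPM against 4419, 2678 and 4163 CPM, and the lowest unadjusted p of any member was 0.0954 (limma), where 4.19% of all genes were under 0.05. The members' median log2 difference in B cells was 0.18, against 0.28 for all genes of that type. The difference of *H2-Aa* in cDCs from that in macrophages, tested on within-heart differences, was -0.73 ± 0.30 (limma, unadjusted p = 0.0302, adjusted p = 0.826), and from that in B cells -0.82 ± 0.27 (adjusted p = 0.847). Against monocytes it was -0.09 ± 0.32 (adjusted p = 0.982) and against Mo-DCs -0.43 ± 0.40 (adjusted p = 0.963), so the graft difference of cDCs was not shown to differ from that of any of these 4 types.

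Unconventional T cells had a similar direction with few cells. *H2-Aa* was 4082, 4841 and 1941 CPM in the IL-33+ hearts, which held 25, 2 and 27 such cells, and 4958, 6602 and 6043 CPM in the IL-33- hearts, which held 18, 7 and 4. The groups did not overlap and the log2 difference was -0.79 ± 0.24 (limma, adjusted p = 0.778). *Cd74* was 7808, 7519 and 5743 CPM against 10589, 11610 and 9408 CPM, without overlap, with a log2 difference of -0.59 ± 0.18 and the same adjusted p. *H2-Eb1* and *H2-Ab1* overlapped, with log2 differences of -0.66 and -0.61. The summed macrophage markers of these cells were 1868 to 3136 CPM in IL-33+ and 3075 to 4546 CPM in IL-33- hearts, and their part in the difference was not tested. A call of *H2-Aa* depended on the setting: the adjusted p was 0.0305 with 50 CPM added, 0.0444 without the filter on low counts and 0.0158 without IL-33+ heart 1.

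In fibroblasts, *H2-Eb1* and *H2-Ab1* passed the 2-fold rule on the higher side in IL-33+ grafts, against a background of 2.68% of genes there. *H2-Eb1* was 254, 105 and 108 CPM in IL-33+ hearts and 94, 0 and 81 CPM in IL-33- hearts, with a fitted log2 difference of 1.75 ± 0.64 (limma, adjusted p = 0.998). The value of 0 was IL-33- heart 5, where 4 fibroblasts were sampled, and 0 UMIs were counted in them. Without the hearts of fewer than 10 fibroblasts the log2 difference was 0.86 (adjusted p = 0.986). *H2-Ab1* was 225, 370 and 136 CPM against 103, 73.8 and 139 CPM, which overlap, with a log2 difference of 1.07 ± 0.42 (0.51 without the small hearts). In Tn, read as background, *H2-Eb1* was 43 to 181 CPM and *H2-Ab1* 76.5 to 185 CPM over hearts.

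None of the remaining differences passed the adjusted threshold. In monocytes *H2-DMa* passed the 2-fold rule (115 ± 70 CPM against 223 ± 99 CPM, SD, n = 3, log2 difference -1.02 ± 0.43, limma adjusted p = 0.965), as 3.68% of all genes did, but 1 of its 3 IL-33+ values came from 1 UMI in 5 cells of heart 2, and without the small hearts the log2 difference was -0.14. *H2-Aa* in monocytes was 908, 1764 and 1200 CPM against 1235, 2235 and 2330 CPM, a log2 difference of -0.58 ± 0.22 with the same adjusted p. In Trm-like cells *H2-Eb1* was 128, 179 and 165 CPM against 113, 69.7 and 87 CPM (log2 difference 0.76 ± 0.31, limma adjusted p = 0.923) and *Cd74* 374 ± 144 CPM against 223 ± 40 CPM (SD, n = 3). The *H2-Eb1* groups did not overlap. In Treg *Cd74* was 397, 363 and 370 CPM against 267, 350 and 237 CPM and *H2-Ab1* 204, 184 and 181 CPM against 166, 110 and 160 CPM, both without overlap and with limma adjusted p of 0.946 and 0.962. In Tn *H2-Eb1* was 122, 43 and 70 CPM against 112, 156 and 181 CPM, a log2 difference of -0.93 ± 0.45 with limma adjusted p = 0.952. In NK cells *H2-Ob* had 2, 3 and 12 UMIs in the IL-33+ hearts and 2, 0 and 0 in the IL-33- hearts. In Mo-DCs 0 of the 7 members tested reached the unadjusted threshold in limma, where 3.49% of all genes did. *H2-Aa* there was at 2832, 2174 and 1766 CPM against 1588, 2061 and 5456 CPM. In that type heart 4 stood apart, with 69371 CPM of summed neutrophil markers against 1407 to 16040 CPM in the other hearts.

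The wider pathway was followed with 7 lists of 48 other genes in B cells, cDCs, macrophages, monocytes, Mo-DCs and fibroblasts, and 0 genes passed the adjusted p of 0.05 in any of the 6 types (limma). At 2-fold and an unadjusted p of 0.05, 15 of 229 gene-by-type tests passed (6.55%), in 5 of the lists. Of all genes 1.93% to 4.59% did so in these types. The lists were chosen with earlier results of these data known. Regulators of class II turnover and trafficking gave 8 of the 15, from 35 tests. These were few genes, *Cd83*, *Cd9* and *Cd82* in more than 1 type each and *March1* in monocytes. In cDCs 6 of 40 list genes passed, where 4.59% of all genes did, and in macrophages 3 of 43, where 1.93% did. The counts were 2 of 37 in B cells (3.72% of all genes), 2 of 41 in fibroblasts (2.68%), 1 of 34 in monocytes (3.68%) and 1 of 34 in Mo-DCs (3.39%). *Cd83*, which protects surface class II from ubiquitination, was 399, 292 and 423 CPM in the Mo-DCs of IL-33+ hearts and 251, 0 and 151 CPM in those of IL-33- hearts (log2 difference 2.33 ± 0.70, limma adjusted p = 0.399). The value of 0 came from 7 Mo-DCs of IL-33- heart 5, and the 292 CPM from 3 UMIs in 4 cells of IL-33+ heart 2. *Cd9*, a tetraspanin that associates with class II, was 234, 103 and 128 CPM in IL-33+ and 377, 278 and 341 CPM in IL-33- cDCs (log2 difference -1.12 ± 0.31, adjusted p = 0.372). In macrophages it was 202, 253 and 229 CPM against 459, 791 and 319 CPM (log2 difference -1.07 ± 0.27, adjusted p = 0.891). Neither pair of groups overlapped.

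The other tests past that rule were in genes of processing, other chains and transcription factors. *Ctsl*, a lysosomal protease, was 120, 161 and 253 CPM in IL-33+ and 96.4, 23 and 65.7 CPM in IL-33- cDCs. *H2-Eb2*, a second gene of I-E beta type, was 7.47, 0 and 36.5 CPM against 56.5, 140 and 47.7 CPM in cDCs, and in macrophages it was also on the lower side (log2 difference -1.43). The dendritic cell factors *Irf4* (28.2, 168 and 160 CPM against 59.1, 0 and 21.6 CPM) and *Batf3* (37.4, 0 and 20.1 CPM against 83.2, 95.9 and 60.8 CPM) lay on opposite sides in cDCs. *Cd82* in B cells and cDCs, *Cd83* in B cells and fibroblasts, *Irf8* in fibroblasts, *March1*, the ligase that ubiquitinates class II, in monocytes, and *Ifng* in macrophages, with 16 UMIs in all, were on the higher side in IL-33+ grafts. Several of these differences involve a value of 0 CPM from few cells. In cDCs it came from 9 cells of heart 5 for *Irf4* and *Cd82*, and from 6 cells of heart 2 for *Batf3* and *H2-Eb2*. *March1* in monocytes had 4 UMIs in the 5 cells of heart 2 and 0 UMIs in the 7 of heart 5. Adjusted p over these tests ran from 0.372 to 0.998.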

How the data were processed

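Single-cell 3' RNA libraries of 6 hashtagged hearts were processed by the authors with Cell Ranger on mm10 and Partek Flow 10.0.23.0425, filtered by counts, genes and mitochondrial share, and annotated by type. The deposited values were log2(CPM + 1) per gene and cell, made by the authors. UMIs were recovered from them: 99.9% of low values (up to 20 UMIs) lay within 0.05 of a whole number, and 22 symbols that held a mean over identifiers were the exception. Cells had 1500 to 14977 UMIs, and intervals or limits on shares cover counting error only.

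For each type, mean CPM per heart was taken over cells, 10 CPM was added, and IL-33+ and IL-33- hearts were compared on the log2 scale with limma 3.58.1 (trend, R 4.3.3). Genes with at least 10 UMIs and a UMI in 3 or more hearts were tested, and p-values were adjusted by Benjamini and Hochberg over all genes of the type. A fold change on this scale understates the change of low genes. A cell was called mixed when it held 2 or more markers of another lineage, which 1318 cells did. The fit was tested on simulated hearts. For shares of cells, each cell was thinned to 1500 UMIs. Doublets had been left to the filters of the authors and no caller was run. The hearts are labelled as separate samples, and all shared 1 pool.

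All members were named in every type, as were list genes past 2-fold with an unadjusted p of 0.05 in 6 types and the 10 other genes most like the core genes. The members, lists and markers were chosen with earlier results of these data known. Alternatives covered the pseudocount, the filter, scaling, limma-voom, small hearts, mixed cells and each heart left out. Leaving out pDC-marked or mature cDCs, neutrophil-marked Mo-DCs and endothelial-marked fibroblasts was added after seeing the data.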

Additional observations from a re-analysis of the deposited data

How the results depend on the processing

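No paired analysis was possible because the labels number the hearts 1 to 6, so the groups share no replicate number. The number of members past the adjusted p, 0 as reported, was 1 with 50 CPM added, 1 without the filter on low counts, and 0 to 1 when each heart was left out in turn. In each case the call was *H2-Aa* in unconventional T cells, and the cause was not tested. The number past 2-fold and the unadjusted p, 3 as reported, was 5 with 1 CPM added, 0 with 50 CPM added, 1 without hearts of fewer than 10 cells, 6 without mixed cells, and 1 to 8 when each heart was left out. The 22 single members followed were all those in cDCs and, in other types, those past the unadjusted p in the reported fit. They were thus chosen from the same hearts that the alternatives reuse. No member had passed the adjusted p in that fit, so keeping its side of the threshold means only that it stayed uncalled. Likeness among alternatives therefore does not test whether the differences would recur in other hearts. Of 329 alternative values of these members, 323 kept direction and side of the threshold and 3 newly passed it. The other 3, in cDCs, reversed: *H2-DMb2* to 0.0037 without IL-33+ heart 3 (lowest value with a heart left out -0.77), *H2-Oa* to 0.23 without mature cDCs and *H2-Ob* to 0.029 without heart 4, the IL-33- heart with its highest level (lowest -0.53). All 64 alternative values of the core genes in cDCs were below 0. *H2-Aa* ran from -0.84 to -0.37 (limma adjusted p 0.0767 to 0.998) and *H2-Eb1* from -0.94 to -0.48 (0.0648 to 0.998). Hearts 2 and 5 gave 2 to 9 cells in several types, which limits each value there.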
